A study of Mus musculus with 24 samples.

Results

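The comparison described here is of Phgdh knockout (KO) with wild-type (WT) cells of the mouse pancreatic ductal adenocarcinoma line HY19636, grown alone in medium that held serine and glycine. It took 6 of the 24 libraries of the series, 3 of each genotype, picked by their labels, and 12061 of the 54532 genes in the deposited table, those at 1 FPKM (fragments counted relative to gene length and sequencing depth) or more in at least 3 of the 24 libraries. The other 18 libraries were of the same KO and WT cells in hepatocyte coculture or in medium free of serine and glycine. They also entered the expression filter and the estimate of scatter behind the p-values. Their own KO-to-WT differences are set below beside those found here. Both genotypes shared the parent line, the complete medium and the lack of hepatocytes. The labels say neither how Phgdh was disrupted, nor which part of it, nor whether the KO cells are 1 clone. Differences between 2 cell populations that arose for other reasons than the loss of Phgdh therefore cannot be told apart from differences that followed it. The labels number the replicates without calling them separate cultures. The p-values therefore speak of how far all 24 libraries scatter within their groups, and that scatter may be technical.

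Serine is made from the glycolytic intermediate 3-phosphoglycerate by Phgdh, Psat1 and Psph, acting in that order. Serine then yields glycine and one-carbon units for nucleotides and methylation, the cysteine of glutathione by transsulfuration, and the head group or backbone of phosphatidylserine and sphingolipids. Cells that cannot make serine can take it up, and the medium used here held both serine and glycine. The transcription factor ATF4, which is translated when amino acids run short, switches on the serine synthesis enzymes, many amino acid transporters and the aminoacyl-tRNA synthetases.

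The 6 libraries held 16130298 to 23479425 gene-assigned reads. KO replicate 1 stood apart from KO replicates 2 and 3 (Pearson r across genes 0.9666 and 0.9704, against 0.993 between replicates 2 and 3 and 0.9903 to 0.9914 among the WT libraries). Of 6740 genes with a KO mean of at least 5 FPKM, 172 were at least 2-fold lower and 28 at least 2-fold higher in KO replicate 1 than in both other KO libraries, against 5 genes for replicate 2 and 3 for replicate 3, either way. The 172 genes had a median GC content of 57.9% and a median length of 1579 bases, against 49.9% and 3932 bases for the 6740. With these genes in 5 equal groups by GC content, the median of KO replicate 1 minus the mean of the other KO libraries, on the log2 scale, was 0.36 in the group of lowest GC and −0.49 in that of highest GC. Counts and values without this library are therefore given wherever it changed a call or a count by more than 1.5 times. Hepatocyte markers summed to 0.082 to 1.19 FPKM in KO and 0.12 to 0.899 FPKM in WT cells, with 12 of 18 at 0 FPKM in all 6 libraries. Macrophage markers summed to 5.42 to 8.21 FPKM in KO and 26.1 to 27.0 FPKM in WT cells, nearly all of it from Cd14 and Cd68, with 9 of 13 at 0. Cholangiocyte markers summed to 665 to 731 FPKM in KO and 793 to 810.0 FPKM in WT cells, with 6 of 9 tested, 3 higher and 2 lower, and the list shares Krt19 and Sox9 with the pancreatic duct list. The ductal keratin gene Krt19 was high in both genotypes (179 to 190.1 FPKM in KO, against 64.0 to 69.4 FPKM in WT cells).

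Phgdh transcript was lower in KO cells but still abundant. Phgdh (ENSMUSG00000053398, chromosome 3, 98313170 to 98339990 on GRCm38, minus strand) stood at 372, 548 and 529 FPKM in the 3 KO libraries, against 934, 929 and 903 FPKM in the 3 WT libraries. The groups did not overlap, and KO replicate 1 was the lowest library. The log2 difference was −0.95 ± 0.12 (limma adjusted p = 1.85e-06), and −0.78 without KO replicate 1. In other libraries of the same cells it was −0.57 in coculture with serine and glycine. It was −0.21 in serine- and glycine-free monoculture, where it did not reach a limma adjusted p under 0.05. A gene total does not show whether working enzyme was lost, since transcripts of a disrupted gene can still be sequenced.

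At an adjusted p under 0.05, 5145 genes (42.7%) differed between the genotypes in medium with serine and glycine, 2596 higher in KO cells (21.5%) and 2549 lower (21.1%). The log2 difference over all tested genes had a median of 0.00221. At least 2-fold differences, on the log2(FPKM + 1) scale used throughout, were found for 420 genes (3.48%), of which 194 were higher (1.61%) and 226 lower (1.87%). Leaving out KO replicate 1 gave 5138 calls (42.6%), and 4271 of the 5145 were called in the same direction without it. A fit to the 6 libraries alone, with 4 residual degrees of freedom in place of 16, called 3165 genes (1578 higher, 1587 lower). Because so many genes differed, each group of genes below is set against 21.5% higher and 21.1% lower among all tested genes. Since these are bulk libraries, fewer cells in a given state and less RNA per cell cannot be told apart.

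The other enzymes of serine synthesis were higher in KO cells. Psat1, the aminotransferase of the second step, stood at 154, 133 and 133 FPKM in KO, against 108, 106 and 104 FPKM in WT cells (0.40 ± 0.05, limma adjusted p = 7.54e-06). Psph, the phosphatase of the last step, stood at 35.1, 41.0 and 41.0 FPKM in KO, against 34.3, 32.4 and 32.3 FPKM in WT cells (0.23 ± 0.06, adjusted p = 0.00428). For both genes every KO library lay above every WT library, though the Psph call was lost in the fit to the 6 libraries alone (adjusted p = 0.0863). Gldc, the glycine decarboxylase of the mitochondrial glycine cleavage system, was the most changed gene around glycine, at 6.15, 5.67 and 5.09 FPKM in KO, against 2.40, 1.74 and 1.75 FPKM in WT cells (1.17 ± 0.08). Gcsh, the carrier protein of the same complex, fell slightly (−0.24).

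Among 18 tested folate one-carbon enzymes, 7 rose and 3 fell in KO cells, with a median log2 difference of 0.04 (6 and 3, with 0.09, without KO replicate 1). Ggh, the hydrolase that trims glutamate tails from folates, rose most (9.06 to 13.1 FPKM in KO, against 4.22 to 5.26 FPKM in WT cells, 1.01). Aldh1l2 and Mthfd1, which oxidise or interconvert folate-bound one-carbon units in the mitochondrion and the cytosol, rose by smaller amounts (0.47 and 0.39). In the methionine cycle and transsulfuration, 4 of 13 rose and 4 fell. Amd1, which commits S-adenosylmethionine to polyamines, rose by 0.86, and Mtr and its reactivating reductase Mtrr, which remethylate homocysteine, rose by 0.41 and 0.56. The purine list, whose pathway consumes glycine and formate, was also split, with 4 of 13 rising and 4 falling. Paics, a bifunctional enzyme of the de novo route, fell to 99.2, 79.4 and 78.6 FPKM in KO, against 157, 156 and 152 FPKM in WT cells (−0.86 ± 0.07), and Prps1 and Prps2, the X-linked makers of its ribose donor, fell by 0.49 and 0.91. Of 14 tested genes for serine-derived lipids 5 rose and 2 fell (3 and 2 without KO replicate 1), and Cers6, a ceramide synthase, had the largest difference (−0.45).

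Amino acid transporters were mostly higher in KO cells. Of 17 tested, 10 rose and 2 fell, with a median log2 difference of 0.31 (11 and 1 without KO replicate 1). The cystine-glutamate antiporter Slc7a11 stood at 31.8, 24.5 and 25.3 FPKM in KO, against 9.61, 9.73 and 9.88 FPKM in WT cells (1.38 ± 0.09, limma adjusted p = 2.93e-10). Its heavy-chain partner Slc3a2, shared with other transporters, stood at 393, 496 and 484 FPKM in KO, against 209, 201 and 199.9 FPKM in WT cells (1.16 ± 0.08). Neither gene overlapped between the genotypes, but both were named for large changes. The cationic transporter Slc7a1 (51.6 to 54.2 FPKM in KO, against 29.4 to 30.04 FPKM in WT cells, 0.82) and Slc1a4, a neutral exchanger that carries serine (60.2 to 62.96 FPKM in KO, against 38.3 to 41.0 FPKM in WT cells, 0.64), rose as well.

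**Figure D1:**
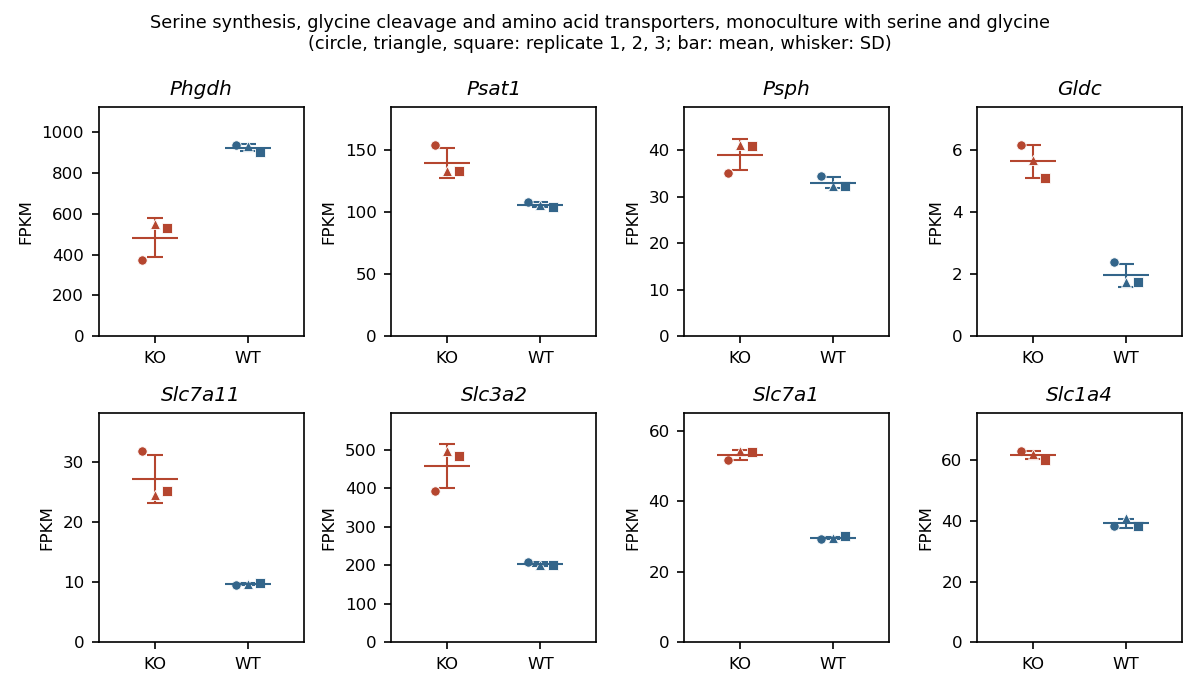
FPKM of 8 genes of serine synthesis, glycine cleavage and amino acid transport in each KO (left) and WT (right) library, with the mean as a bar and the SD as a whisker. Phgdh was lower in all 3 KO libraries, between 372 and 548 FPKM, while the other 7 genes were higher in every KO library than in any WT library. The glycine cleavage and transport genes among them were named for large changes.

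The wider ATF4 list did not follow the transporters. Of 26 tested members 3 rose and 6 fell, with a median of −0.10 (4 and 5, with a median of −0.01, without KO replicate 1). Vldlr, a lipoprotein receptor, rose (20.96 to 28.5 FPKM in KO, against 13.9 to 15.2 FPKM in WT cells, 0.66), as did Aldh18a1, the first enzyme of proline synthesis (0.44). Ppp1r15a, which restarts translation by bringing a phosphatase to eIF2 alpha, fell to 110.2, 139 and 138 FPKM in KO, against 203, 190.0 and 193 FPKM in WT cells (−0.60 ± 0.07). The stress cytokine Gdf15 was near the detection limit in both genotypes (0 to 0.122 FPKM in KO, against 0.263 to 1.07 FPKM in WT cells). Of 20 cytosolic aminoacyl-tRNA synthetases, 7 rose and 4 fell. Iars, Tars and Wars, which charge isoleucine, threonine and tryptophan tRNAs, rose by 0.47, 0.43 and 0.39.

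Targets of NRF2 (Nfe2l2), the factor that answers oxidative and electrophile stress, were higher in KO cells far more often than lower. Of 31 tested, 20 rose and 1 fell, with a median log2 difference of 0.33, and the counts were the same without KO replicate 1. Nfe2l2 itself and its inhibitor Keap1 were not called (0.07 and −0.10). Abcc4, an efflux pump for organic anions, stood at 35.1, 33.8 and 34.02 FPKM in KO, against 13.2, 12.8 and 14.1 FPKM in WT cells (1.30 ± 0.04, limma adjusted p = 1.57e-14). Srxn1, which repairs overoxidised peroxiredoxins, stood at 11.3, 10.9 and 10.9 FPKM in KO, against 4.54, 4.28 and 3.78 FPKM in WT cells (1.21 ± 0.07). Cbr1, a carbonyl reductase, was low in both genotypes and near 0 in WT cells (1.54 to 2.51 FPKM in KO, against 0.0848 to 0.153 FPKM in WT cells, 1.37). Gclc and Gclm, the subunits of the enzyme that makes the first bond of glutathione, rose by 0.83 and 0.55. Osgin1 was the member that fell (−0.86).

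NRF2 binds the antioxidant response element with a small MAF protein. Its core, searched here as TGACNNNGC on either strand, was found in the 300 bases around the start (250 before and 50 after) of 12 of the 27 tested list members with a promoter in the RefSeq table (44.4%), in 8 of the 16 of these that rose and in 4 of the 11 that did not. Among all 8459 tested genes with a promoter the share was 17.3%. A match is a run of letters and not evidence of binding. Shown here are 60-base windows upstream of the starts of 5 members that rose together (RefSeq, GRCm38.p6), written 5′ to 3′ along each gene's strand with the matched letters, read on either strand, in capitals. Matches that reach past the start are not shown.
Abcc4 (one start, minus strand, chr14:118676932-118676991): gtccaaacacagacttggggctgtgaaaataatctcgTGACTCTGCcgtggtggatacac
Abcc4 (another start, minus strand, chr14:118706220-118706279): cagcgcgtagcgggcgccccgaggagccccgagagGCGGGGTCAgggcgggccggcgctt
Gclm (plus strand, chr3:122245398-122245457): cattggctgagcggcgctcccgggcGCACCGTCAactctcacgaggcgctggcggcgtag
Prdx1 (plus strand, chr4:116685441-116685500): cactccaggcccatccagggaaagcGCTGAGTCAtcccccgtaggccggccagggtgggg
Txnrd1 (plus strand, chr10:82859089-82859148): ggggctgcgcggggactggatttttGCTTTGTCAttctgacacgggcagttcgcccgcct
Ugdh (minus strand, chr5:65435940-65435999): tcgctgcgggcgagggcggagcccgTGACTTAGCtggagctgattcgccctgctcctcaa
Ugdh (a second match, minus strand, chr5:65435902-65435961): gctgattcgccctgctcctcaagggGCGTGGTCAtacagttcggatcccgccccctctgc
Prdx1, a peroxide-reducing thiol enzyme, rose by 0.38, Txnrd1, the thioredoxin reductase, by 0.22, and Ugdh, which makes UDP-glucuronate for conjugation, by 0.47.

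Iron genes moved with this group and share members with it. Of 19 iron and metallothionein genes, 11 rose and 3 fell. Fth1, the ferritin heavy chain that stores iron, stood at 4491, 5273 and 5271 FPKM in KO, against 2409, 2426 and 2437 FPKM in WT cells (1.04 ± 0.07). Hmox1, which frees iron from haem, stood at 107, 136 and 135 FPKM in KO, against 76.7, 73.0 and 74.1 FPKM in WT cells (0.74 ± 0.09), and the iron exporter Slc40a1 rose at a low level (1.74 to 2.11 FPKM in KO, against 0.701 to 0.934 FPKM in WT cells, 0.70). Steap3, a ferric reductase, fell (0.110 to 0.187 FPKM in KO, against 0.778 to 1.06 FPKM in WT cells, −0.76). Of 10 glutathione transferases, 4 rose and 3 fell. Gstp1 and Gstm1 rose by 0.98 each, and Gsta4 fell to 8.69 to 10.5 FPKM in KO, against 17.8 to 20.7 FPKM in WT cells (−0.95). Reads of the near-identical Akr1c12 and Akr1c13, aldo-keto reductases that rose by 0.84 and 0.68, may be split between the genes.

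Glycolysis was higher at several steps. Of 21 tested genes, 12 rose and 3 fell, with a median log2 difference of 0.28 (13 and 2, with 0.34, without KO replicate 1). Pfkp, the platelet-type phosphofructokinase, stood at 6.02, 5.52 and 5.18 FPKM in KO, against 0.955, 1.09 and 1.10 FPKM in WT cells (1.68 ± 0.05, limma adjusted p = 1.61e-15). Aldoc, an aldolase isozyme (6.21 to 8.69 FPKM in KO, against 3.10 to 4.06 FPKM in WT cells, 0.94), the glucose transporter Slc2a1 (90.9 to 101 FPKM in KO, against 51.7 to 54.9 FPKM in WT cells, 0.85) and the isomerase Tpi1 (224 to 281 FPKM in KO, against 158 to 172 FPKM in WT cells, 0.66) also rose. Gapdh, a common reference gene named here after its values were seen, varied widely within each genotype. It had 30.7, 82.3 and 48.2 FPKM in KO, against 2.26, 2.12 and 20.8 FPKM in WT cells, a spread within each genotype of more than 2-fold, and was not called (adjusted p = 0.0574). It has many near-identical processed copies in the mouse genome, and the sources used here do not say how shared reads were counted.

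Hypoxia-linked genes shifted in the same direction. Of 23, 13 rose and 2 fell (12 and 1 without KO replicate 1), some of them shared with glycolysis. Bhlhe40, a transcriptional repressor, stood at 40.4, 36.02 and 36.8 FPKM in KO, against 18.9, 18.8 and 19.6 FPKM in WT cells (0.94 ± 0.05). Ndrg1 (60.1 to 67.04 FPKM in KO, against 35.4 to 36.5 FPKM in WT cells) and Pdk1, the kinase that holds pyruvate dehydrogenase off (9.20 to 10.9 FPKM in KO, against 5.92 to 6.33 FPKM in WT cells), rose by 0.79 and 0.65. Epas1, which encodes HIF-2 alpha, rose (1.39 to 2.48 FPKM in KO, against 0.469 to 0.605 FPKM in WT cells, 0.86). NADPH-producing enzymes were divided. Pgd of the pentose phosphate pathway rose (37.9 to 42.5 FPKM in KO, against 21.3 to 23.3 FPKM in WT cells, 0.82), while Idh2, the mitochondrial NADP-linked isocitrate dehydrogenase, fell to 15.2, 19.5 and 16.98 FPKM in KO, against 42.2, 38.9 and 40.3 FPKM in WT cells (−1.19 ± 0.08), and the mitochondrial malic enzyme Me2 fell by 0.89. Of 35 genes of the tricarboxylic acid cycle, glutamine and proline, 7 rose and 9 fell. Idh3g, a subunit of the NAD-linked isocitrate dehydrogenase, was the most changed (23.5 to 29.9 FPKM in KO, against 45.4 to 46.8 FPKM in WT cells, −0.82). Of 41 nuclear respiratory chain genes 5 rose and 11 fell.

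Fatty acid synthesis and storage genes rose in 12 of 23 cases and fell in 5. Scd2 and Scd1, which introduce the first double bond into saturated fatty acids, stood at 549, 674 and 669 FPKM in KO, against 391, 402 and 399 FPKM in WT cells for Scd2 (0.66 ± 0.07) and 246, 194 and 206 FPKM in KO, against 143, 149 and 149.8 FPKM in WT cells for Scd1 (0.54 ± 0.08). The elongase Elovl7 (9.47 to 11.8 FPKM in KO, against 4.30 to 4.72 FPKM in WT cells, 1.07) and the acyl-CoA synthetase Acsl5 (31.9 to 36.01 FPKM in KO, against 21.8 to 21.9 FPKM in WT cells, 0.60) rose too. Pparg, the nuclear receptor of fat storage, rose (20.1 to 26.9 FPKM in KO, against 10.8 to 12.7 FPKM in WT cells, 0.85). The cholesterol list depended on KO replicate 1. With it 5 of 26 rose and 7 fell, and without it 11 rose and 4 fell. Nsdhl, an X-linked sterol dehydrogenase, fell in both cases (10.5 to 12.9 FPKM in KO, against 23.1 to 26.7 FPKM in WT cells, −1.08 with and −1.16 without). Lipoprotein genes held one of the largest falls, that of Apob, the core protein of very low density lipoprotein (2.73, 1.83 and 2.22 FPKM in KO, against 33.6, 34.4 and 34.3 FPKM in WT cells, −3.44 ± 0.09). Apob is made chiefly by liver and intestine, and the hepatocyte markers Alb, Apoa1 and Ttr did not reach 1 FPKM in 3 libraries.

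**Figure D2:**
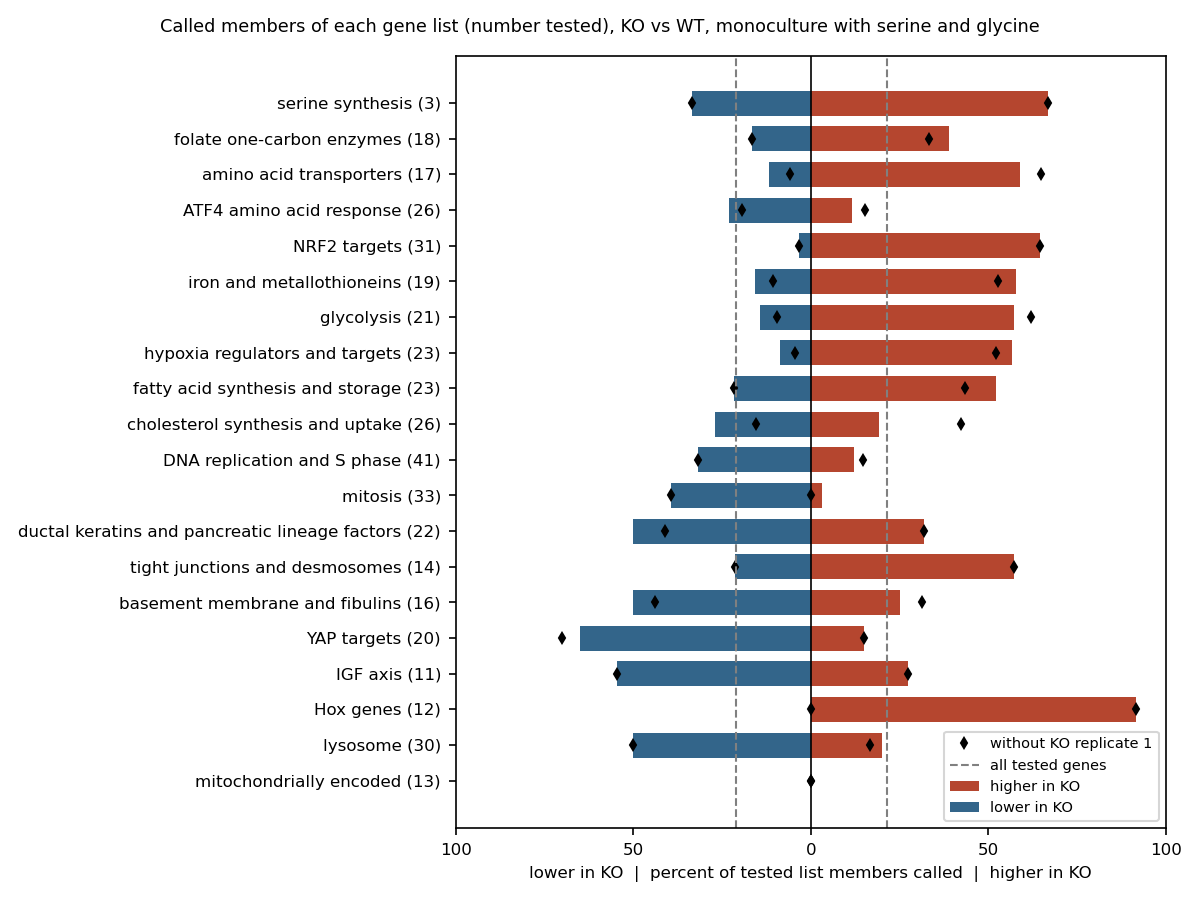
Percent of the tested members of 20 gene lists that were called higher (right) or lower (left) in KO than in WT cells, with diamonds for the fit without KO replicate 1 and dashed lines at the 21.5% and 21.1% of all tested genes. Hox genes, NRF2 targets and amino acid transporters lay to the right, and YAP targets, lysosomal and mitotic genes to the left.

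Mitotic transcripts were more often lower than higher in KO cells, at low levels in both genotypes. Of 33 mitotic genes, 1 rose and 13 fell, with a median of −0.25 (13 fell without KO replicate 1 as well). Cdk1, the kinase that drives mitosis, stood at 0.670, 0.775 and 0.822 FPKM in KO, against 2.37, 2.28 and 2.27 FPKM in WT cells (−0.91 ± 0.07, limma adjusted p = 7.39e-09). Top2a, the topoisomerase of chromosome condensation (0.515 to 0.734 FPKM in KO, against 1.75 to 2.02 FPKM in WT cells, −0.81), and the phosphatase Cdc25b (1.48 to 1.54 FPKM in KO, against 3.39 to 3.52 FPKM in WT cells, −0.83) fell as well. Of 41 replication genes 5 rose and 13 fell, with a median of −0.02. Of 16 cyclin and CDK inhibitor genes 4 rose and 4 fell, with a median of −0.01. E2f1, which switches on S phase genes, fell to 3.42, 4.79 and 4.13 FPKM in KO, against 8.77, 8.39 and 8.18 FPKM in WT cells (−0.89 ± 0.10), and the helicase subunit Mcm5 and cyclin gene Ccne1 fell by 0.80 and 0.89. Cdkn1a, which encodes the inhibitor p21, rose to 15.6, 21.95 and 23.4 FPKM in KO, against 8.14, 9.08 and 8.85 FPKM in WT cells (1.12 ± 0.11). Of 23 p53 targets, Cdkn1a included, 7 rose and 8 fell. Plk2 rose (31.3 to 36.9 FPKM in KO, against 11.5 to 12.1 FPKM in WT cells, 1.43), and the BH3-only gene Pmaip1 fell to 6.20 to 7.38 FPKM in KO, against 12.8 to 15.3 FPKM in WT cells (−0.93).

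Chaperones were modestly higher. Of 26 genes of the endoplasmic reticulum 12 rose and 3 fell, with Syvn1, a ubiquitin ligase of protein disposal, at 36.6 to 55.7 FPKM in KO, against 30.8 to 31.9 FPKM in WT cells (0.59). Of 17 heat shock proteins 8 rose and 2 fell. The inducible Hspa1b stood at 18.8, 21.8 and 23.3 FPKM in KO, against 10.4, 9.15 and 7.93 FPKM in WT cells (1.14 ± 0.10), although its reads may be shared with the near-identical Hspa1a, which was not called (−0.09, adjusted p = 0.721). Lysosomal genes were lower, 15 of 30 falling and 6 rising, with a median of −0.27. Hexa, the hexosaminidase subunit that degrades gangliosides, fell to 14.5, 13.1 and 14.6 FPKM in KO, against 68.6, 67.5 and 65.7 FPKM in WT cells (−2.18 ± 0.08, limma adjusted p = 3.16e-14). Cathepsin E (Ctse, 1.70 to 2.995 FPKM in KO, against 9.16 to 9.87 FPKM in WT cells) and the proton pump subunit Atp6v1h (5.58 to 6.09 FPKM in KO, against 13.3 to 13.8 FPKM in WT cells) fell by 1.74 and 1.09. Of 31 proteasome genes 5 rose and 5 fell, and of 45 cytosolic ribosomal protein genes 6 rose and 9 fell, shares close to those of all tested genes or below them.

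Epithelial and pancreatic lineage genes moved both ways. Of 22 ductal and pancreatic lineage genes, 7 rose and 11 fell. Krt19 rose to 190.1, 179 and 185 FPKM in KO, against 69.4, 64.0 and 67.999 FPKM in WT cells (1.45 ± 0.06), and the ductal progenitor factor Sox9 rose to 7.44, 8.26 and 8.19 FPKM in KO, against 2.90, 2.17 and 2.05 FPKM in WT cells (1.42 ± 0.08). Krt23, another keratin, fell to 11.5, 11.4 and 11.1 FPKM in KO, against 58.4, 60.7 and 58.9 FPKM in WT cells (−2.29 ± 0.05, limma adjusted p = 9.88e-18). Muc1, a membrane mucin, fell to 21.4, 18.97 and 19.9 FPKM in KO, against 59.1, 62.7 and 62.3 FPKM in WT cells (−1.57 ± 0.06), and the homeobox factor Onecut3 to 0.436 to 0.655 FPKM in KO, against 2.93 to 3.20 FPKM in WT cells (−1.38). The squamous gene Sprr1a, whose protein is cross-linked into the cornified envelope, fell to 13.5, 12.2 and 11.9 FPKM in KO, against 152, 167 and 175 FPKM in WT cells (−3.61 ± 0.06). None of these genes overlapped between the genotypes, but they were named for large changes. The share of all tested genes without overlap is not given here.

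Cadherins differed by large amounts. Cdh17, a cadherin of intestinal and pancreatic epithelium, stood at 70.4, 53.8 and 54.6 FPKM in KO, against 6.26, 6.97 and 7.19 FPKM in WT cells (2.95 ± 0.08). Cdh2, or N-cadherin, was read in KO cells only (3.80, 3.07 and 3.43 FPKM in KO, against 0, 0 and 0 FPKM in WT cells). Twist1, a factor of epithelial-mesenchymal transition, was likewise found in KO cells only (2.78, 1.52 and 2.35 FPKM in KO, against 0, 0 and 0 FPKM in WT cells). Yet fibronectin (Fn1) fell to 8.97 to 9.28 FPKM in KO, against 18.3 to 19.4 FPKM in WT cells (−0.96), and of the 17 tested genes of this list 4 rose and 5 fell. The desmosome genes Dsg2 and Dsp rose, with Dsg2 near 0 in WT cells (1.67 to 2.39 FPKM in KO, against 0.0135 to 0.0327 FPKM in WT cells, 1.52) and Dsp at 7.26 to 9.60 FPKM in KO, against 2.62 to 3.002 FPKM in WT cells (1.23). The claudins Cldn6 and Cldn2 fell by 1.16 and 1.07. Prkcz, the atypical protein kinase C of the PAR polarity complex, was nearly absent from WT cells (5.58, 5.29 and 5.32 FPKM in KO, against 0, 0 and 0.0254 FPKM in WT cells, 2.67 ± 0.07). Pawr, an inhibitor of that kinase, rose to 11.3, 15.9 and 14.3 FPKM in KO, against 1.25, 1.52 and 1.01 FPKM in WT cells (2.71 ± 0.16). The whole polarity list had 4 rises and 6 falls among 16, and 8 and 5 without KO replicate 1.

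Genes of collagen processing moved both ways. Of 18 tested, 5 rose and 6 fell, with a median log2 difference of −0.05 (6 and 6, with 0.01, without KO replicate 1), and the named members were among the larger changes. Serpinh1, the collagen chaperone HSP47, had 0 reads in the 3 KO libraries (0, 0 and 0 FPKM in KO, against 15.2, 14.6 and 14.3 FPKM in WT cells, −3.97 ± 0.05, limma adjusted p = 8.21e-21). The prolyl hydroxylase P3h2 (0.395 to 0.557 FPKM in KO, against 2.16 to 3.26 FPKM in WT cells), the glycosyltransferase Colgalt1 (26.8 to 28.2 FPKM in KO, against 51.6 to 53.7 FPKM in WT cells) and Crtap (24.1 to 29.3 FPKM in KO, against 45.4 to 48.5 FPKM in WT cells), which act on the same nascent chains, fell by 1.29, 0.90 and 0.78. Few collagens were expressed, 7 of 27 being tested, of which 1 rose and 3 fell (2 and 2 without KO replicate 1). Of 16 basement membrane and fibulin genes 4 rose and 8 fell. Fbln2 fell to 5.52, 8.28 and 7.59 FPKM in KO, against 60.1, 58.2 and 57.5 FPKM in WT cells (−2.89 ± 0.11), and Ltbp4, which binds latent TGF-beta, to 0.360 to 0.770 FPKM in KO, against 5.60 to 5.77 FPKM in WT cells (−2.07). Nid1, a linker of laminin and collagen IV, moved the other way (11.4, 10.8 and 10.8 FPKM in KO, against 1.67, 1.71 and 1.57 FPKM in WT cells, 2.18 ± 0.05). The laminin receptor gene Itga6 rose to 49.4 to 65.4 FPKM in KO, against 24.2 to 25.3 FPKM in WT cells (1.11) and Itgb3 to 1.73 to 1.86 FPKM in KO, against 0.372 to 0.532 FPKM in WT cells (0.95). The plasminogen activator Plat fell to 0.310 to 0.579 FPKM in KO, against 3.11 to 3.45 FPKM in WT cells (−1.57) and the membrane metalloproteinase Mmp14 to 7.12 to 10.04 FPKM in KO, against 18.4 to 20.2 FPKM in WT cells (−1.03).

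Targets of the Hippo pathway coactivator YAP were lower. Of 20 tested, 13 fell and 3 rose, with a median of −0.28 (14 and 3 without KO replicate 1). Cyr61, a matricellular protein and classic YAP target, fell to 41.6, 49.5 and 47.9 FPKM in KO, against 137, 134 and 133 FPKM in WT cells (−1.52 ± 0.06, limma adjusted p = 4.19e-13). Ctgf, its close relative, fell to 13.7, 11.99 and 11.5 FPKM in KO, against 28.3, 30.9 and 29.1 FPKM in WT cells (−1.18 ± 0.07), and Ankrd1 fell to 138, 126 and 128 FPKM in KO, against 272, 274 and 282 FPKM in WT cells (−1.07 ± 0.06). Tead2, one of the DNA-binding partners of YAP, fell to 8.44, 11.9 and 12.1 FPKM in KO, against 43.1, 40.4 and 40.2 FPKM in WT cells (−1.85 ± 0.12). All 4 genes kept the genotypes apart in every library, but they were named for large changes. Yap1 itself differed little (−0.27), and its paralog Wwtr1 was higher (0.32).

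Growth factor genes shifted between families. Of 9 tested genes of the EGF family 5 rose and 1 fell (6 and 2 without KO replicate 1). The ligand genes Areg (107, 63.6 and 65.2 FPKM in KO, against 24.0005, 24.9 and 28.2 FPKM in WT cells, 1.54 ± 0.16) and Btc (4.596 to 6.55 FPKM in KO, against 1.07 to 1.22 FPKM in WT cells, 1.55) rose most, and Ereg rose by 0.92, while Hbegf fell by 0.63. These 3 risers lie on chromosome 5, and Areg was highest in KO replicate 1 (1.30 without it). Fosl1, an AP-1 subunit downstream of MAP kinase, rose to 61.1, 80.6 and 80.3 FPKM in KO, against 29.9, 28.03 and 27.04 FPKM in WT cells (1.34 ± 0.09), among 25 such genes with 8 rises and 3 falls. Of the insulin-like growth factor binding proteins, 3 were among the larger falls. Igfbp7 stood at 27.8, 37.7 and 32.96 FPKM in KO, against 309, 288 and 296 FPKM in WT cells (−3.15 ± 0.11), Igfbp3 fell to 41.1 to 46.7 FPKM in KO, against 188 to 190.2 FPKM in WT cells (−2.08) and Igfbp4 to 26.9 to 47.8 FPKM in KO, against 88.7 to 99.2 FPKM in WT cells (−1.24), within a list of 11 with 3 rises and 6 falls. Wnt ligands parted ways. Wnt7a fell to 6.68, 7.59 and 6.78 FPKM in KO, against 54.0, 50.9 and 52.7 FPKM in WT cells (−2.74 ± 0.07), whereas Wnt7b rose to 16.9 to 29.9 FPKM in KO, against 10.9 to 12.3 FPKM in WT cells (1.03). Of 12 Notch and Hedgehog genes 6 rose and 2 fell (8 and 2 without KO replicate 1), and the Hedgehog transducer Smo fell to 1.23 to 2.58 FPKM in KO, against 10.04 to 11.8 FPKM in WT cells (−2.05). Of 23 TGF-beta and BMP genes 7 rose and 9 fell, with Id2 up (1.09) and Id1 down (−0.99), both targets of BMP signals.

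Hox genes, which set position along the body axis, were mostly higher in KO cells. Of 12 tested Hox genes 11 rose, with a median of 0.88, and the counts were the same without KO replicate 1. The genes lay in 3 clusters, on chromosomes 6, 11 and 15, and all were low. Hoxb7 stood at 4.8005, 6.90 and 6.86 FPKM in KO, against 0.687, 0.771 and 0.416 FPKM in WT cells (2.14 ± 0.16, limma adjusted p = 2.71e-09). Hoxb6 (2.74 to 4.75 FPKM in KO, against 0.606 to 1.39 FPKM in WT cells), Hoxb4 (1.29 to 1.62 FPKM in KO, against 0 to 0.0653 FPKM in WT cells) and Hoxa7 (3.19 to 4.87 FPKM in KO, against 1.15 to 1.58 FPKM in WT cells) rose by 1.42, 1.21 and 1.13. The zinc finger genes Zic2 and Zic5, which share a locus, were all but absent from WT cells (2.62 to 3.78 FPKM in KO, against 0 FPKM in WT cells for Zic2, 2.98 to 3.28 FPKM in KO, against 0 to 0.0775 FPKM in WT cells for Zic5). Imprinted genes, which are read from 1 parental copy, were called in 7 of 9 tested cases, 4 higher and 3 lower. The whole list summed to 60.8 to 65.8 FPKM in KO, against 76.8 to 79.6 FPKM in WT cells. The members named next were picked for the size of their change, and all of them rose. Peg10 and Sgce, neighbours in one imprinted domain, and Grb10 had no read in WT cells. Plagl1 rose to 2.78 to 4.01 FPKM in KO, against 1.07 to 1.36 FPKM in WT cells (0.93).

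Signals to and from other cells were mixed. Crlf2, a receptor chain for thymic stromal lymphopoietin, fell to 0.328, 1.02 and 0.874 FPKM in KO, against 13.8, 13.6 and 15.04 FPKM in WT cells (−3.14 ± 0.16). Of 19 cytokine, chemokine and NF-kB genes 4 rose and 8 fell, with a median of −0.23 (4 and 7, with −0.15, without KO replicate 1). Cxcl5, a neutrophil chemokine, rose to 5.54 to 6.97 FPKM in KO, against 1.29 to 1.90 FPKM in WT cells (1.39), and Csf1, the macrophage growth factor, to 6.66 to 9.33 FPKM in KO, against 3.12 to 4.18 FPKM in WT cells (0.96). Of 9 tested interferon response genes 4 fell (3 fell and 1 rose without KO replicate 1). Bst2, the antiviral tetherin, fell to 7.05, 12.5 and 12.5 FPKM in KO, against 32.6, 33.3 and 41.8 FPKM in WT cells (−1.69 ± 0.15). Cd274, which encodes PD-L1, fell to 3.36 to 4.48 FPKM in KO, against 7.84 to 9.61 FPKM in WT cells (−1.05), and H2-T23, a non-classical class I gene, rose to 10.9 to 14.8 FPKM in KO, against 6.47 to 7.19 FPKM in WT cells (0.84). Of 10 complement and coagulation genes 3 rose and 4 fell, and the falls included the anticoagulant genes for thrombomodulin (Thbd, 1.91, 1.71 and 2.41 FPKM in KO, against 14.1, 15.3 and 15.6 FPKM in WT cells, −2.42 ± 0.10) and protein S (Pros1, 0.518 to 0.884 FPKM in KO, against 3.57 to 3.83 FPKM in WT cells, −1.50). Cd14, the lipopolysaccharide co-receptor, fell to 2.69, 4.37 and 4.19 FPKM in KO, against 18.2, 18.2 and 17.2 FPKM in WT cells (−2.01 ± 0.13), although Ptprc, Csf1r and other defining macrophage markers did not reach the expression filter.

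By size alone, the 15 largest rises and falls among protein-coding genes at 5 FPKM or more included several enzymes and transporters. Prl2c3 and Prl2c2, prolactin relatives with near-identical copies between which reads may be split, rose. Prl2c3 had 137 to 189 FPKM in KO, against 5.83 to 8.15 FPKM in WT cells, and Prl2c2 had 66.2 to 152 FPKM in KO, against 12.8 to 14.4 FPKM in WT cells. Prl itself went the other way (2.78, 2.75 and 3.17 FPKM in KO, against 19.1, 19.4 and 21.2 FPKM in WT cells, −2.42 ± 0.06). The sodium-proton exchanger Slc9a2 rose to 12.3, 10.8 and 11.5 FPKM in KO, against 0.7999, 0.635 and 0.713 FPKM in WT cells (2.87 ± 0.08). Gpd1, which turns a glycolytic triose into glycerol-3-phosphate, rose to 3.08, 6.52 and 5.63 FPKM in KO, against 0.358, 0.475 and 0.253 FPKM in WT cells (2.11 ± 0.16), with the lowest of the KO values in replicate 1. Ephx2, the soluble epoxide hydrolase, rose to 10.7, 9.82 and 10.4 FPKM in KO, against 1.64, 1.63 and 1.94 FPKM in WT cells (2.05 ± 0.08). Ddah2 (3.11 to 6.43 FPKM in KO, against 0.336 to 0.736 FPKM in WT cells), the glucuronosyltransferase Ugt2b34 (23.97 to 32.1 FPKM in KO, against 6.26 to 6.55 FPKM in WT cells), the calcium pump Atp2a3 (5.99 to 7.38 FPKM in KO, against 1.22 to 1.30 FPKM in WT cells) and Arap3 (14.6 to 21.2 FPKM in KO, against 3.92 to 5.51 FPKM in WT cells) rose by 1.96, 1.91, 1.78 and 1.71. Ugt2b34 belongs to a multigene family, so its reads may also be shared. Among the falls, Ogdhl, a relative of the 2-oxoglutarate dehydrogenase subunit, fell to 0.532, 0.625 and 0.293 FPKM in KO, against 7.82, 7.70 and 7.23 FPKM in WT cells (−2.54 ± 0.11). Aplp1, a relative of the amyloid precursor, was all but absent from KO cells (0, 0.0545 and 0 FPKM in KO, against 5.44, 4.90 and 4.67 FPKM in WT cells, −2.56 ± 0.07). Mvb12b, an ESCRT-I subunit, fell to 0.0980 to 0.203 FPKM in KO, against 5.55 to 6.32 FPKM in WT cells (−2.61), Wtip to 0 to 0.293 FPKM in KO, against 6.18 to 6.59 FPKM in WT cells (−2.64) and Tmem176b to 2.71 to 3.31 FPKM in KO, against 21.6 to 24.8 FPKM in WT cells (−2.54).

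**Figure D3:**
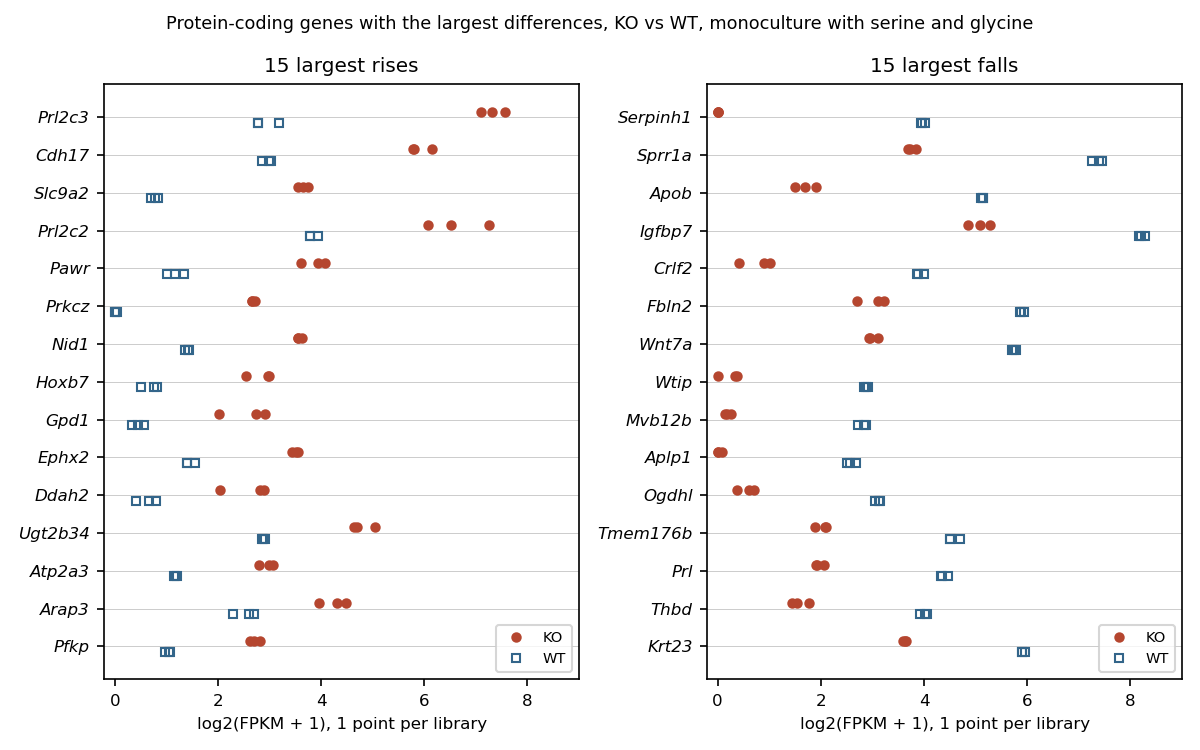
log2(FPKM + 1) in each KO (circle) and WT (open square) library for the 15 largest rises (left) and 15 largest falls (right) among protein-coding genes. The genotypes do not overlap in any gene, which the choice of genes required, and Serpinh1 lies at 0 in all 3 KO libraries.

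Some genes were read in one genotype only. With 0 reads in 3 libraries and at least 100 in the other 3, 11 genes were found in KO cells only and 4 in WT cells only. These thresholds were set after the values were seen. A fold bound compares the reads per total reads of one genotype, 61006858 over the 3 KO and 52573694 over the 3 WT libraries, with a limit of 3 reads per total reads of the other. Cdh2 had 1716 reads in KO cells, at least 492.9-fold more than that limit in WT cells after this scaling for depth. The corresponding bounds were 331-fold for Sgce, 315-fold for Armcx3, 214.9-fold for Peg10, 181.5-fold for Grb10, 174-fold for Zic2 and 62.9-fold for Twist1. Gm42982, Ripk3, En2 and H60b had 101 to 173 reads in KO cells. In the other direction Serpinh1 had 1977 reads in WT cells, at least 764.7-fold more, after the same scaling, than the limit in KO cells. B630019K06Rik, Erich2 and Sp5 had 212, 177 and 124 reads in WT cells, at least 82.0-fold, 68.5-fold and 48.0-fold more than the limit in KO cells after scaling. Bounds cover counting error only. Over all 12 libraries of the genotype without reads, across media and cocultures, each of the 15 genes had 0 to 9 reads, against 388 to 7725 in the other genotype.

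Several of these genes were neighbours on their chromosome. Sp5 and Erich2 lie next to each other on chromosome 2, with only Erich2os among the tested genes between them, which had 0 reads in KO and 41 in WT cells. Beyond them, Rpl9-ps7 on one side (log2 difference −0.07, not called) and Gorasp2 on the other (−0.28, called) were read in both genotypes. Sgce and Peg10 lie back to back on chromosome 6 and were both found in KO cells only, while Casd1 beside them fell by 0.68 and Gm44250 beyond Peg10 fell by 0.39. Armcx3 on chromosome X stands next to Armcx1, which had 519 reads in KO and 13 in WT cells. On its other side, Gprasp1 was read in both genotypes and was lower in KO cells (−0.62). The nearest tested gene beyond Cdh2 was Dsg2, with 986 reads in KO and 11 in WT cells, but it lies several megabases away. Gm7665, the nearest tested gene on the other side of Cdh2, had 693 reads in KO and 430 in WT cells and was not called. Other neighbours were also read almost only in the genotype of their listed gene. Gm42983 beside Gm42982 had 248 reads in KO and 1 in WT cells, Ddc beside Grb10 had 91 and 2, and 2610035F20Rik beside Zic2 had 70 and 0. Fewer reads fell on Raet1d beside H60b (29 in KO and 0 in WT cells) and Gm5751 beside B630019K06Rik (0 and 20). Serpinh1 had no neighbour read almost only in one genotype. Map6 and Rps3 on its sides differed by −0.30 and −0.19 and were read in both genotypes. The sources used here do not give whether reads were counted by strand, so antisense genes such as Gm42982 and overlapping pairs cannot be separated from their partners.

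Promoters were at hand for 6 of these 15 genes (RefSeq, GRCm38.p6). They are shown for 3 genes with no read in KO cells and 1 with no read in WT cells as the 100 bases before the start, 5′ to 3′ along the gene, with CpG dinucleotides, the letters that DNA methylation acts on, in capitals.
Serpinh1 (minus strand, chr7:99353240-99353339): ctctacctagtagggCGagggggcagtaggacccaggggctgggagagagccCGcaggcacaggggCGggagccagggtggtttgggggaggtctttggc
Sp5 (plus strand, chr2:70474823-70474922): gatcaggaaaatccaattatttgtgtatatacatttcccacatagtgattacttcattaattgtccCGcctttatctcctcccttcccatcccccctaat
Erich2 (plus strand, chr2:70508719-70508818): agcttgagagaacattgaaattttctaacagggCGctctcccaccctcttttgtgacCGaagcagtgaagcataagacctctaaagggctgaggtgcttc
Twist1 (plus strand, chr12:33957571-33957670): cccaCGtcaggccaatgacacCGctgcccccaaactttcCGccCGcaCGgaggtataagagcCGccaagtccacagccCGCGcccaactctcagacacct
In the full 300 bases around the start, Serpinh1 had 16 CpG, Sp5 6, Erich2 7 and Twist1 27, against a median of 21 over the tested genes with a promoter. Ripk3 and Grb10, which also had no read in WT cells, are not shown. Ripk3 had 10 CpG, and Grb10 had 9 at one start and 45 at another. Methylation was not measured, and the letters alone say nothing about it.

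Differences were not spread evenly over the chromosomes. On chromosome X, 223 of 380 tested genes were lower in KO cells (58.7%) and 10 higher (2.63%), and the median log2 difference was −0.35. The medians were −0.22 on chromosome 8, −0.20 on chromosome 18, −0.15 on chromosome 7 and −0.14 on chromosome 9. They were 0.21 on chromosome 15, 0.20 on chromosome 19, 0.18 on chromosome 13 and 0.13 on chromosome 5. In the single libraries the X median, relative to the WT mean, was −0.29, −0.39 and −0.38 in KO and −0.01, 0.01 and 0.00 in WT cells. KO replicate 1 gave the smallest of the KO values for X and also for chromosomes 15, 18 and 19, and the largest in size for chromosome 7, where the median without it was −0.09. In coculture with serine and glycine, measured in other libraries of the same cells, the medians were −0.39 on X, −0.21 on 8, −0.23 on 18, −0.08 on 7, 0.21 on 15 and 0.23 on 19. In serine- and glycine-free monoculture they were −0.27 on X, −0.22 on 8, −0.08 on 18, −0.20 on 7, 0.08 on 15 and 0.20 on 19.

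Runs of 50 neighbouring tested genes, each starting 25 genes after the last, placed these shifts along the chromosomes. Of 452 runs, 32 had a median of −0.25 or less and 24 of 0.25 or more, and the medians reached from −0.45 to 0.34. All 14 runs of chromosome X were low. The low runs also took 10 of 33 runs on chromosome 7 and 8 of 25 on chromosome 8. High runs took 6 of 16 on chromosome 19, 5 of 21 on chromosome 6 and 4 of 17 on chromosome 15. All 32 low runs were below 0 in coculture as well, and all 24 high runs above 0. The run length and threshold were chosen after the data were seen, and runs are given as a description with no test. Copy number was not measured, so gene dosage and regulation cannot be told apart. Several genes named above lie on shifted chromosomes. The lower Prps1, Prps2, Nsdhl, Idh3g and Cldn2 lie on X. The higher Psat1, Gldc, Slc3a2, Fth1, Gstp1, Scd1, Scd2, Acsl5 and Fosl1 lie on chromosome 19. Other named genes went against the shift of their chromosome. Among them, Armcx3 and Armcx1 on X and Cdh2 and Dsg2 on chromosome 18 were higher, and Crlf2 and Igfbp7 on chromosome 5 lower. The part of the chromosome shift in their differences was not tested.

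**Figure D4:**
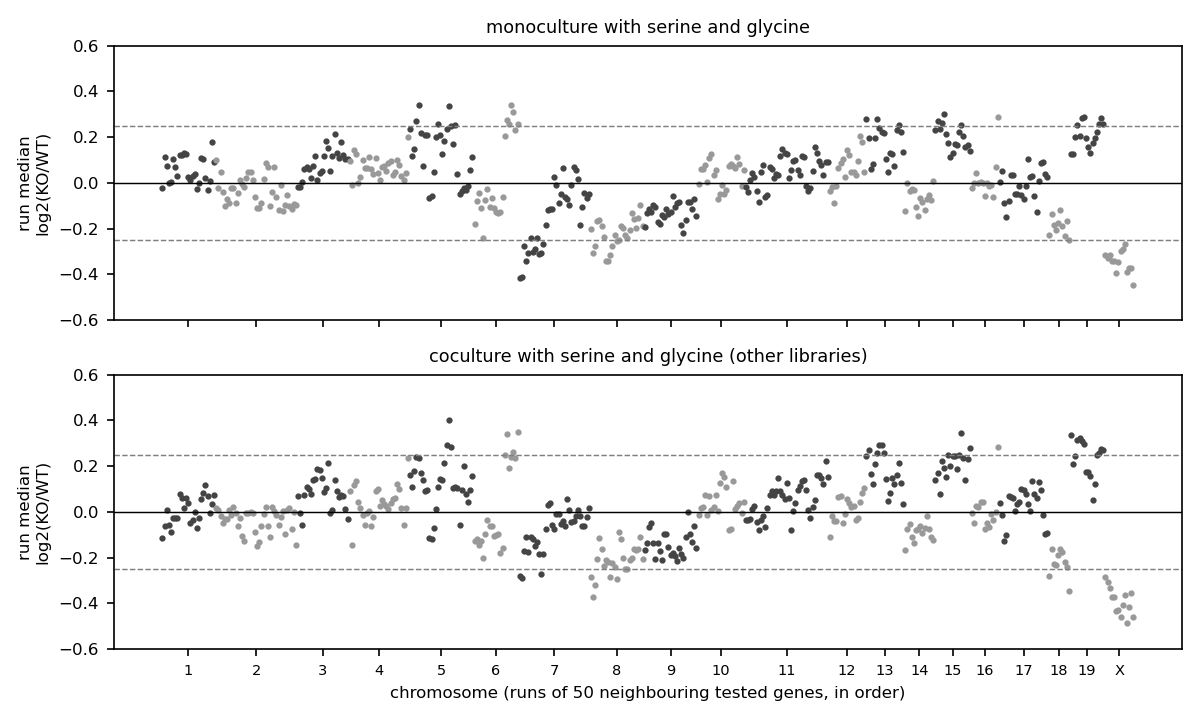
Median log2 difference of KO minus WT over each run of 50 neighbouring tested genes, ordered along chromosomes 1 to 19 and X, in monoculture (top) and in coculture (bottom) with serine and glycine, with dashed lines at 0.25 above and below 0. Chromosome X lies below −0.25 throughout the top panel, down to −0.45, and the shifts of chromosomes 7, 8 and 19 have the same sign in the bottom panel.

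Most of the large differences were also found in the other culture conditions. Of the 420 genes called at 2-fold or more here, 371 (88.3%) were called in the same direction in coculture with serine and glycine, 327 (77.9%) in serine- and glycine-free monoculture and 377 (89.8%) in serine- and glycine-free coculture, where 53.6% of all tested genes were called. Of all 5145 calls, 3330 were shared in direction with coculture, which is 64.7% of the calls here and 62.9% of those in coculture (5291 genes, 43.9%), and 91 were opposite. With monoculture free of serine and glycine 3142 were shared, 61.1% of the calls here and 35.4% of those there (8880 genes, 73.6%), and 1074 were opposite. The difference between these effects was tested by interaction terms, given as the effect in monoculture with serine and glycine minus that in the other condition. The KO-to-WT difference changed between monoculture and coculture for 1251 genes (10.4%), and between medium with and without serine and glycine for 7385 genes (61.2%). Among the 5145 genes called here, 823 differed by the first term and 3508 by the second.

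The 6 genes with the largest interactions with coculture, among protein-coding genes also called here, included secreted proteins and a matrix protease. They were named for that size and had a mean of 5 FPKM or more in the highest group compared. Sprr1a was lower in KO cells in monoculture (−3.61) and less so in coculture (86.2 ± 3.01 FPKM in KO and 204 ± 4.89 FPKM in WT, −1.24), with means ± SD over 3 libraries here and below, an interaction of −2.37 ± 0.08 (limma adjusted p = 4.96e-13). Depp1, a FOXO-induced autophagy gene, was lower in KO monocultures (3.07, 5.06 and 5.74 FPKM in KO, against 21.3, 18.7 and 16.4 FPKM in WT cells, −1.84), and in coculture the genotypes did not separate (5.26 ± 0.123 FPKM in KO and 6.31 ± 0.567 FPKM in WT, −0.22, adjusted p = 0.316). Mmp13, a collagenase, was lower in KO monocultures (8.23, 5.60 and 6.05 FPKM in KO, against 9.59, 11.6 and 9.69 FPKM in WT cells, −0.58) and higher in KO cocultures (14.6 ± 0.864 FPKM in KO and 5.71 ± 0.806 FPKM in WT, 1.23). The alarmin Il33 was below 1 FPKM in monoculture (0.4998 to 0.998 FPKM in KO, against 0.223 to 0.329 FPKM in WT cells), and in coculture it averaged 0.874 ± 0.154 FPKM in KO and 5.47 ± 0.635 FPKM in WT (−1.79). Its monoculture call was lost without KO replicate 1 (adjusted p = 0.108), without WT replicate 3 and in the fit to the 6 libraries alone. The collagen cross-linker Loxl2 had a small difference in monoculture (−0.37) and a larger one in coculture (2.37 ± 0.0978 FPKM in KO and 13.9 ± 1.57 FPKM in WT, −2.13). Fgfbp1, which releases fibroblast growth factors from the matrix, was higher in KO monocultures (0.47) and lower in KO cocultures (−1.29).

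Withdrawal of serine and glycine turned several of the monoculture differences round. Scd2, higher in KO cells with serine and glycine, averaged 13.5 ± 0.472 FPKM in KO and 428 ± 8.68 FPKM in WT without them (−4.89), an interaction of 5.55 ± 0.09 (limma adjusted p = 4.86e-19). Lgals4, an epithelial galectin, was higher in KO cells with them (99.8, 158 and 149.6 FPKM in KO, against 97.2, 82.9 and 85.1 FPKM in WT cells, 0.59) and lower without (2.63 ± 0.568 FPKM in KO and 89.9 ± 4.51 FPKM in WT, −4.66). Its call with serine and glycine was lost in the fit to the 6 libraries alone (adjusted p = 0.0614). Rrm2, the ribonucleotide reductase subunit of S phase, was lower in KO cells with serine and glycine (1.99, 1.28 and 1.19 FPKM in KO, against 3.17, 2.81 and 2.47 FPKM in WT cells, −0.63) and higher without (51.9 ± 4.46 FPKM in KO and 2.04 ± 0.477 FPKM in WT, 4.13). Sprr1a, lower in KO cells here, averaged 882 ± 41.0 FPKM in KO and 177 ± 9.90 FPKM in WT without serine and glycine (2.31). Dynap rose in both media, by 0.69 here and 5.99 without serine and glycine. The transporter pair also changed sides, as Slc7a11 differed by 1.38 here and −1.33 without serine and glycine (interaction 2.71 ± 0.13, limma adjusted p = 1.02e-12), and Slc3a2 by 1.16 and −0.86 (interaction 2.02 ± 0.12, limma adjusted p = 2.01e-11). In the free medium 37.4% of all tested genes were called higher and 36.3% lower. The Hox list (9 higher and 2 lower), the YAP list (1 and 17) and the lysosomal list (3 and 21) kept their direction. Other lists turned round. NRF2 targets had 9 higher and 17 lower, amino acid transporters 5 and 11, glycolysis genes 5 and 14, and hypoxia-linked genes 6 and 16. Fatty acid synthesis and storage genes had 6 and 15, mitotic genes 29 and 1, and replication genes 38 and 0.

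**Figure D5:**
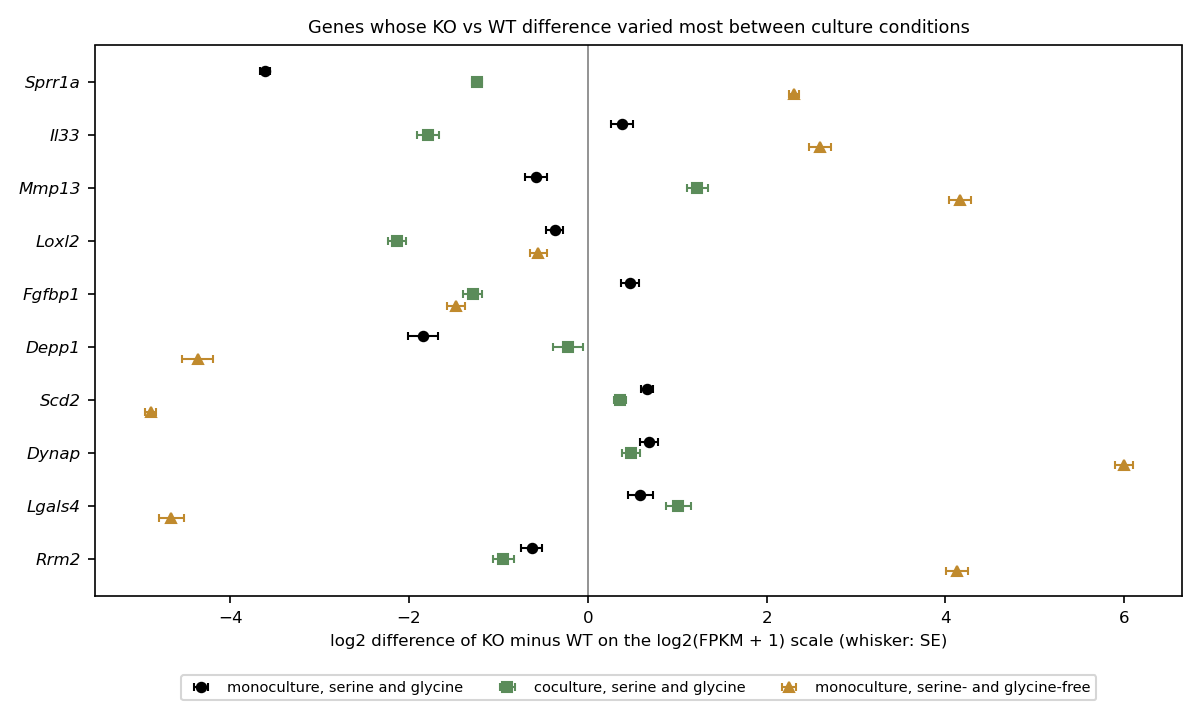
Log2 difference of KO minus WT (point, with its SE) for 10 genes named by the size of their interactions. The conditions are monoculture with serine and glycine (circle), coculture with serine and glycine (square) and serine- and glycine-free monoculture (triangle). The genes ranked highest among protein-coding genes also called here, at a mean of 5 FPKM or more in the highest group compared. Scd2 and Lgals4 lie above 0 with serine and glycine and below −4 in the free monoculture, and Mmp13 and Rrm2 do the reverse in monoculture, from below 0 to above 4.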

How the data were processed

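RNA sequencing of total RNA was deposited as 1 table of FPKM values over 24 libraries, 8 groups of 3. HISAT2 and the build GRCm38 (mm10) are named in the submitters' processing notes. Of the counter, strand use and scaling factor the sources used here say nothing. FPKM times gene length gave whole reads for 100.0% of the deposited values within 0.01 read, and these set the depths of 16130298 to 23479425 reads per library.

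Genes at 1 FPKM or more in at least 3 libraries were tested with limma 3.58.1 in R 4.3.3 (moderated test with trend) on log2(FPKM + 1), with 8 group means and 16 residual degrees of freedom. P-values were Benjamini-Hochberg adjusted over all 12061 genes and called under 0.05. Differences are KO minus WT on that scale, given ± SE, which understates changes of low genes. The fit was tested on simulated data. A count model on the recovered reads (limma voom, added after seeing the data) called 5348 genes. Tables and figures used Python 3.11.15.

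The gene lists, their members and the naming rule were chosen with earlier results of these data known. Genes named were Phgdh, Psat1 and Psph, and the 15 largest rises and falls among called protein-coding genes. These rises and falls had a mean of 5 FPKM or more and no overlap. Up to 4 called members per list with the largest change were named too. For each interaction, 6 genes were named, the largest among protein-coding genes called both here and in that interaction. These had a mean of 5 FPKM or more in the highest group compared. Akr1c13, Gapdh, Hspa1a, Keap1, Nfe2l2, Onecut3, Osgin1, Prdx1, Txnrd1, Ugdh, Wwtr1, Yap1 and the genes read in one genotype only, with their neighbours, were named after their values were seen. Alternatives covered scaling, pseudocount, the filter on low values, the libraries fitted, the replicate number as a block and each library left out. Gene positions and types were those of the deposited table. Of its gene identifiers, 99.8% were found in GENCODE M21, which gave GC content, and 98.1% stood at the same position there.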

Additional observations from a re-analysis of the deposited data

Results flagged for a closer look

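The KO-to-WT difference itself varied between culture conditions for the genes named by their interaction terms, each as the log2 difference in monoculture with serine and glycine minus that in the other condition, tested by limma. Between monoculture and coculture the interactions were −2.37 for Sprr1a, 2.17 for Il33, −1.80 for Mmp13, 1.76 for Loxl2, 1.76 for Fgfbp1 and −1.62 for Depp1. Between medium with and without serine and glycine, in monoculture, they were −5.92 for Sprr1a, 5.55 for Scd2, −5.31 for Dynap, 5.25 for Lgals4, −4.76 for Rrm2 and −4.74 for Mmp13. The naming rule took the largest values among protein-coding genes also called between the genotypes here. It required a mean of 5 FPKM or more in the highest group compared. Their sizes therefore describe the extremes of that set, and genes not called here could not be named.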

How the results depend on the processing

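Fitting only the libraries compared gave 3165 calls, 3124 of them among the 5145 reported, and 769 genes by the interaction with coculture. Genes called at 2-fold or more came to 970 with a pseudocount of 0.1 and to 1064 with limma voom on the recovered reads, an alternative added after seeing the data, as was scaling each library to its own total (5202 calls). Leaving out 1 library at a time gave 4434 to 5138 calls, 398 to 495 at 2-fold or more, 885 to 1604 interactions with coculture, 7026 to 7758 with serine and glycine, and a Phgdh difference of −1.05 to −0.78. With the replicate number as a block, 4990 genes were called and Phgdh was at −0.95. Same-numbered KO and WT libraries did not deviate together (r −0.195, −0.091 and −0.068), so the numbers were not taken to pair samples. Every other alternative left these 4 counts within 1.5 times the reported count. Of 252 genes named by rule, 223 were called under every alternative, 29 lost their call under at least 1 (28 of them when only the 6 libraries were fitted) and 0 changed sign. Of 124 list counts, 50 moved by more than 1.5 times under at least 1 alternative. The depth limits what can be said of genes under about 1 FPKM, and the 3 libraries per genotype limit the rest.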
